A study of Rattus norvegicus with 6 samples.

Results

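The immunoglobulin Fc receptor genes examined here were Fcgr1a, Fcgr2a, Fcgr2b, Fcgr3a, Fcer1g and Fcgrt. They were taken as the rows of the gene table whose gene name equaled the symbol, which gave 6 rows of 30957. The study compared the ipsilateral side of the lumbar spinal cord of rats with bone cancer pain (BCP) and of sham-operated rats on day 14, with 3 libraries in each group. Both groups were adult female Wistar rats with an injection into the left tibia and without any genetic change. BCP rats received living Walker 256 cells, a rat mammary carcinoma line, whereas sham rats received the same cells after heat killing. The meninges were removed and the libraries held ribosome-depleted total RNA of whole tissue, so RNA of every cell type in the piece was counted.

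Fc receptors bind the constant part of antibodies and so let a cell respond to what an antibody has bound. Fcgr1a encodes the high affinity receptor for IgG, and Fcgr3a and Fcgr2a encode activating receptors of low affinity. These receptors pass their signal through ITAM motifs (immunoreceptor tyrosine-based activation motifs) that Src family kinases phosphorylate and Syk binds, and Fcer1g encodes the small chain that carries the ITAM for several of them. Fcgr2b encodes the inhibitory receptor, whose own motif recruits phosphatases. Fcgrt encodes the neonatal Fc receptor FcRn, which is built like an MHC class I heavy chain, pairs with beta-2 microglobulin and protects IgG from breakdown in endothelial and other cells. In the central nervous system microglia and perivascular macrophages are the main cells known to carry the Fc gamma receptors, and natural killer cells, neutrophils and monocytes of the blood carry them as well.

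The gene libraries held between 11779485 and 15004290 counts, and the edgeR quasi-likelihood fit tested 14908 genes. A gene was called up-regulated or down-regulated when its Benjamini-Hochberg adjusted p-value over all tested genes was under 0.05 and its absolute log2 fold change (log2FC, BCP relative to sham) was over 1. Of the 6 Fc receptor genes 5 were tested and 4 were called up-regulated, namely Fcgr1a, Fcgr2b, Fcgr3a and Fcer1g. Among all tested genes 946, or 6.35%, were called up-regulated and 16, or 0.107%, were called down-regulated. In the same 4 genes every BCP library was above every sham library in CPM (counts scaled to library size with the normalization factors of edgeR), which was the case in 21.7% of tested genes, while 19.8% had every BCP library below every sham library. In bulk tissue, more cells of a type and more RNA per cell cannot be told apart. The labels do not say whether each library came from a separate rat, so the p-values measure the spread between these libraries, which may be technical.

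**Figure D1:**
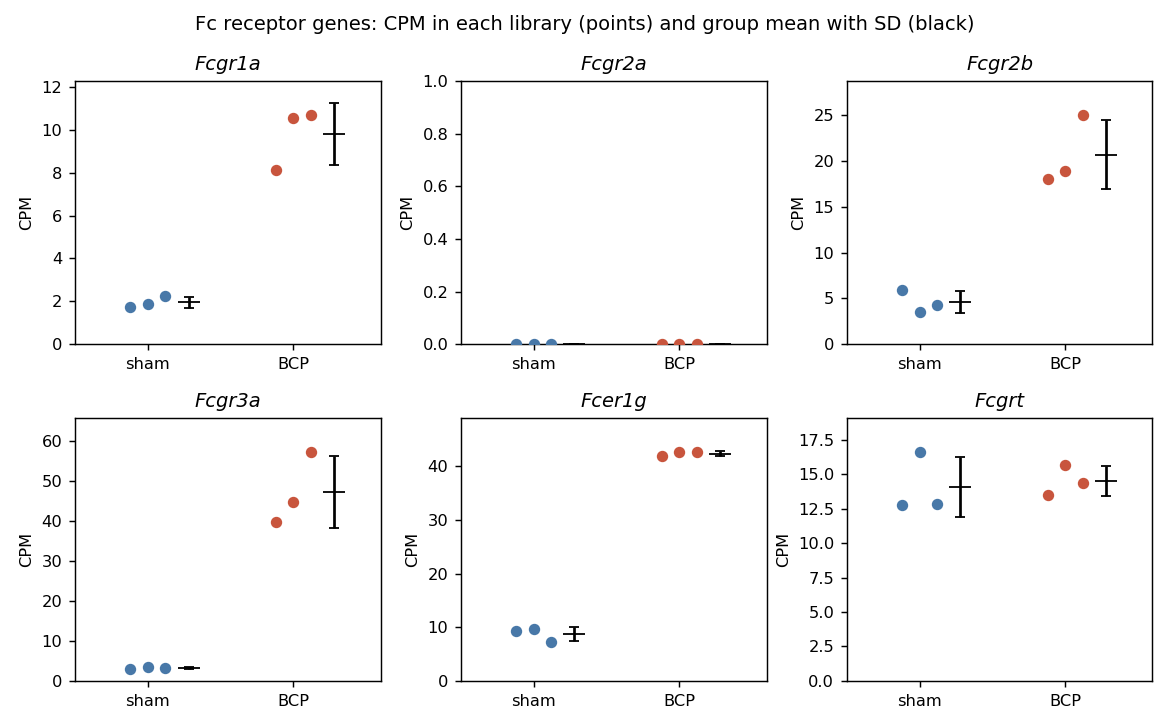
CPM of the 6 Fc receptor genes in each sham (blue) and BCP (red) library, with the mean and SD of each group (n = 3) in black and an own axis from 0 for each gene. BCP libraries lay above all sham libraries for Fcgr1a, Fcgr2b, Fcgr3a and Fcer1g, Fcgr2a stayed at 0 in all 6, and the groups overlapped for Fcgrt.

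Fcgr3a, the activating low affinity receptor, had the largest change. It was counted 40, 48 and 49 times in sham libraries 1, 2 and 3, and 471, 625 and 755 times in BCP libraries 1, 2 and 3. Even the lowest BCP library was far above the highest sham library, and the sham libraries were close to each other. The level was 3.24 ± 0.164 CPM in sham and 47.2 ± 8.95 CPM in BCP (mean ± SD, n = 3 each), a log2FC of 3.86 (SE 0.15, 95% confidence interval 3.55 to 4.18) or 14.5-fold with an adjusted p of 9.18e-12 in edgeR. By log2FC it ranked 104 of the 14908 tested genes. The row (ENSRNOG00000024382, chr13:89385859-89396051 in Rnor_6.0) carries the older names CD16-2 and Fcgr4 in RefSeq, and RefSeq also lists Fcgr3a as an older name of Fcgr2a, so the symbol alone does not identify the receptor.

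Fcgr1a, the high affinity IgG receptor, was the least abundant of the up-regulated receptors in counts. Sham libraries had 23, 27 and 33 counts and BCP libraries had 96, 148 and 141. All BCP libraries stood above all sham libraries, with BCP library 1 the lowest of its group. Fcgr1a (ENSRNOG00000021199, chr2:198430530-198458041) rose from 1.96 ± 0.246 to 9.79 ± 1.45 CPM, with a log2FC of 2.32 (SE 0.20, interval 1.89 to 2.74), 4.98-fold, and an adjusted p of 3.43e-08 in edgeR.

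Fcgr2b, the inhibitory receptor, rose as well. Counts were 78, 51 and 63 in sham and 214, 265 and 330 in BCP. Sham library 1 was the highest of its group and BCP library 3 the highest of all. Fcgr2b (ENSRNOG00000046452, chr13:89327794-89433815) went from 4.59 ± 1.23 to 20.7 ± 3.76 CPM, a log2FC of 2.18 (SE 0.18, interval 1.80 to 2.56) or 4.53-fold, with an adjusted p of 8.3e-08 in edgeR. The annotated span of Fcgr2b contains that of Fcgr3a, and the sources used here do not give how reads of overlapping or paralogous genes were counted, so reads could be divided between these rows.

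Fcer1g, the ITAM-bearing chain shared by the activating receptors, was the member with the smallest p-value. Sham libraries held 121, 138 and 108 counts and BCP libraries 495, 597 and 563. The BCP libraries were almost equal once scaled to library size, whereas sham library 3 was lower than the other two. The gene (ENSRNOG00000024159, chr13:89601896-89606326) increased from 8.72 ± 1.25 to 42.4 ± 0.46 CPM, with a log2FC of 2.28 (SE 0.10, interval 2.06 to 2.50), 4.87-fold, and an adjusted p of 3.4e-12 in edgeR, rank 16 of all tested genes by p-value.

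Fcgrt, the neonatal Fc receptor, did not pass the test. Its counts were 168, 238 and 190 in sham and 160, 219 and 190 in BCP. Library 2 was the highest in both groups and the groups overlapped. Fcgrt (ENSRNOG00000020583, chr1:101086877-101095594) measured 14.1 ± 2.19 CPM in sham and 14.5 ± 1.07 CPM in BCP, with a log2FC of 0.04 (SE 0.13) and an adjusted p of 0.839 in edgeR, and the interval of the log2FC from -0.22 to 0.31 leaves out a change of the size seen in the other tested members.

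Fcgr2a had 0 counts in all 6 libraries and was not tested. In these libraries 3 counts, the most that a count of 0 allows, correspond to 0.203 to 0.254 CPM, and this limit covers counting error only. Its row (ENSRNOG00000049422, chr13:91168973-91198036) lies inside the span of LOC103693683 (chr13:91146876-91229066), described as a low affinity receptor III for IgG, which had 1, 1 and 0 counts in sham and 2, 2 and 1 in BCP. RefSeq lists Fcgr2al1, a protein-coding gene, and Fcgr2a-ps1, a transcribed pseudogene, on the same chromosome. How reads that match several of these copies were counted is not given in the sources used here, so the 0 describes this row and not all transcripts of the receptor.

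Levels of different genes were set side by side in FPKM, the deposited value scaled to gene length and library size. In every library Fcer1g was the highest. It measured 13.6 ± 1.95 FPKM in sham and 68.1 ± 1.26 FPKM in BCP. Fcgrt was next in sham at 8.96 ± 1.42 FPKM, ahead of Fcgr3a at 1.61 ± 0.0874 FPKM. In BCP their order was the other way round, with 24.2 ± 4.74 FPKM for Fcgr3a and 9.49 ± 0.751 FPKM for Fcgrt. Neither of these neighbors in the order overlapped within a group. Fcgr1a and Fcgr2b were the lowest of the detected members in both groups and overlapped, at 1.01 ± 0.129 and 1.03 ± 0.273 FPKM in sham and 5.20 ± 0.807 and 4.80 ± 0.901 FPKM in BCP.

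Among the Fc gamma receptor genes with counts, the make-up shifted toward Fcgr3a. Its share of the summed FPKM of Fcgr1a, Fcgr2b and Fcgr3a ran to 40.3%, 48.4% and 43.9% in sham, compared with 70.6%, 69.6% and 71.9% in BCP. The inhibitory Fcgr2b held 35.6%, 23.3% and 25.5% in sham and 14.5%, 13.4% and 14.2% in BCP. Fcgr1a held between 24.0% and 30.6% in sham and between 13.9% and 17.1% in BCP. For none of the 3 genes did the shares of the groups overlap. The shares depend on the lengths used for FPKM and on how reads of the overlapping Fcgr2b and Fcgr3a rows were divided.

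**Figure D2:**
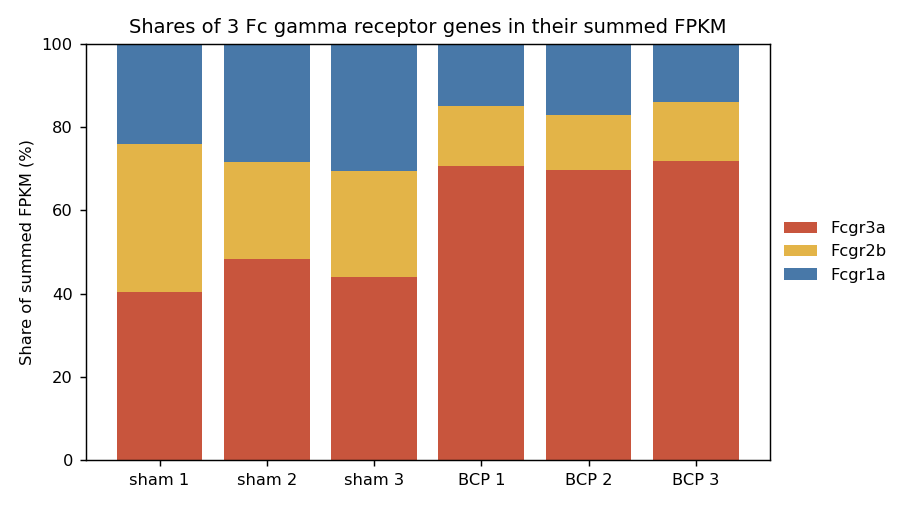
Shares of Fcgr1a, Fcgr2b and Fcgr3a in their summed FPKM, in percent, stacked to 100 for each of the 6 libraries. Fcgr3a takes 40.3% to 48.4% of the sum in sham libraries and 69.6% to 71.9% in BCP libraries.

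The relation of activating and inhibitory receptors was tested as the log2 ratio of their counts within a library, in which library size cancels. The log2 ratio of Fcgr3a to Fcgr2b was -0.95, -0.09 and -0.36 in sham and 1.14, 1.24 and 1.19 in BCP. The difference of the group means was 1.66, with no overlap, and the two-sided exact permutation test gave p = 0.1 (adjusted p = 0.12 over 6 ratios), the smallest p that 3 against 3 libraries allow. Per length, Fcgr3a exceeded Fcgr2b by 1.13 to 2.08 times in sham and by 4.86 to 5.21 times in BCP. The lengths behind the FPKM were 1978 bases for Fcgr3a and 4368 for Fcgr2b. In counts, Fcgr3a was below Fcgr2b in every sham library, so their order in sham depends on these lengths. The log2 ratio of Fcgr1a to Fcgr2b was -1.74, -0.91 and -0.92 in sham and -1.15, -0.84 and -1.22 in BCP, so the groups overlapped. Their means differed by 0.12 (exact permutation test, p = 0.8, adjusted p = 0.8), and without sham library 1 by -0.16.

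Fcer1g and Fcgr1a both rose less than Fcgr3a. The log2 ratio of Fcer1g to Fcgr3a was 1.58, 1.51 and 1.13 in sham and 0.07, -0.07 and -0.42 in BCP, a difference of -1.55 (exact permutation test, p = 0.1, adjusted p = 0.12). That of Fcgr1a to Fcgr3a was -0.79, -0.82 and -0.56 in sham and -2.29, -2.07 and -2.42 in BCP, a difference of -1.54 with the same p. Fcgrt and its partner B2m, the beta-2 microglobulin that also serves all MHC class I molecules, moved apart. B2m was counted 3902, 4177 and 3278 times in sham and 11549, 16280 and 15917 times in BCP, with a log2FC of 2.05 (SE 0.16, adjusted p = 0.00133 in edgeR). The log2 ratio of Fcgrt to B2m fell from -4.26 ± 0.24 to -6.26 ± 0.11 (n = 3 each, exact permutation test, p = 0.1, adjusted p = 0.12), without overlap. The log2 ratio of Fcgrt to Fcer1g was between 0.47 and 0.81 in sham and between -1.63 and -1.44 in BCP, a difference of -2.23 with the same p. A ratio with Fcgr2a could not be formed because it had no count.

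**Figure D3:**
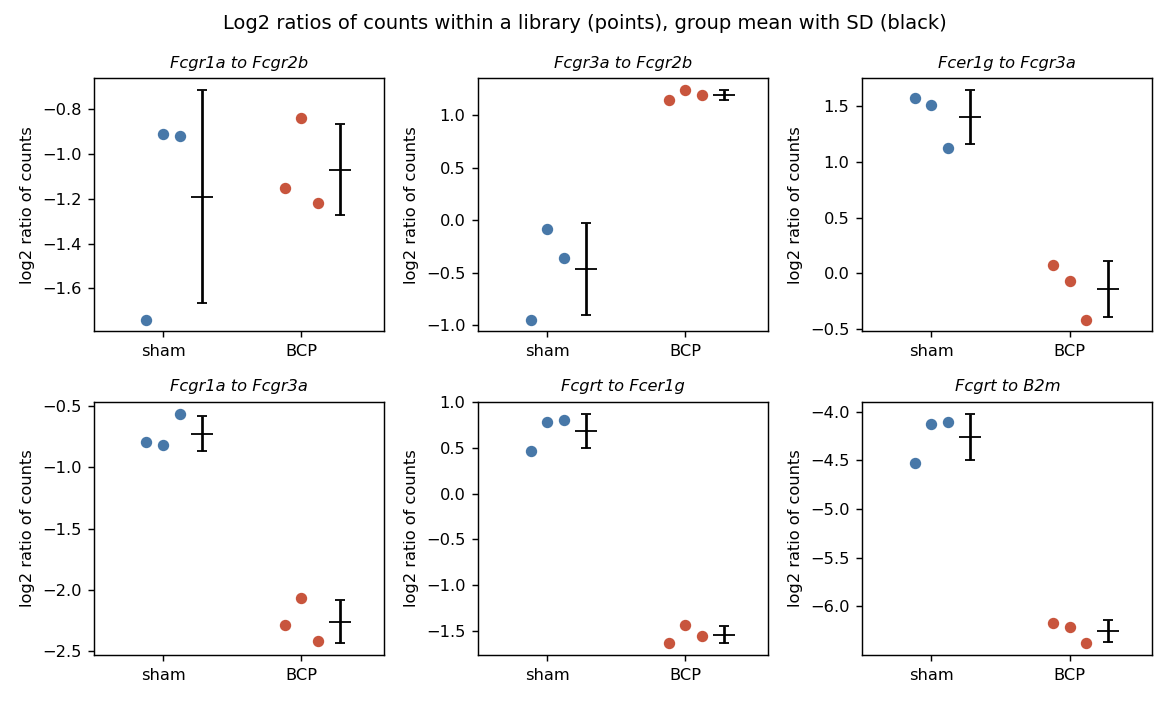
Log2 ratios of the counts of 2 genes within a library, for sham (blue) and BCP (red) libraries, with mean and SD of each group (n = 3) in black. The groups overlap for Fcgr1a to Fcgr2b and are separate for the other 5 ratios, and each panel has an own axis that does not start at 0.

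The members also differed in how their values ran across the 6 libraries. Distance was taken as the root mean square of the differences in log2 CPM after each gene was centered on its mean. It was 0.25 between Fcgr1a and Fcer1g, 0.287 between Fcgr2b and Fcer1g and 0.306 between Fcgr1a and Fcgr2b, but 0.78 to 0.867 between Fcgr3a and those 3 genes. Fcgrt was 1.12 to 1.9 away from every other tested member. Across all tested genes outside the members, the nearest to Fcgr3a were Ncf1, a subunit of the phagocyte NADPH oxidase (0.136), Lyz2, a lysozyme (0.152), and Il21r, the receptor of interleukin-21 (0.161). Nearest to Fcer1g were Cd300lf (0.0478), a leukocyte receptor with inhibitory motifs, Elf4 (0.0887) and Lacc1 (0.0891). For Fcgr1a they were the tyrosine kinase Fes (0.0906), Tlr13 (0.118) and Nfam1 (0.126), and for Fcgr2b the metallothionein Mt2A (0.0875), Gcnt1 (0.0959) and Bin2 (0.102). Fcgrt was nearest to Pcdhga9 (0.051), Mdh1b (0.0514) and Hoga1 (0.0514), whose log2FC were between -0.02 and 0.09. With 2 groups of libraries, this distance mostly reflects the size of the difference between them.

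Other genes for immunoglobulin receptors and Fc receptor-like proteins were mostly silent. Of 16 such rows 3 had no count, among them Fcer1a, which encodes the IgE-binding chain of the high affinity IgE receptor that Fcer1g serves in mast cells, and Ms4a2, the beta chain of that receptor, had at most 3 counts in a library. Of the 4 rows tested 2 were called up-regulated. Fcrl2, which RefSeq also lists as Fcrls and Msr2, had 70, 77 and 34 counts in sham and 421, 418 and 524 in BCP. The groups were far apart, and the log2FC was 3.02 (SE 0.28, adjusted p = 0.000548 in edgeR), second only to Fcgr3a within the members and these rows. Fcrla, which lies next to Fcgr2b, had 4, 17 and 8 counts in sham and 11, 22 and 31 in BCP, with overlapping groups and a log2FC of 1.24 (SE 0.45, adjusted p = 0.0485). Trim21, the antibody receptor of the cytosol, had 724, 583 and 364 counts in sham and 982, 1604 and 1237 in BCP and missed the threshold (log2FC 1.28, SE 0.34, adjusted p = 0.0623). Fcgbp, an IgG Fc binding protein of mucus, had a log2FC of -0.50 (SE 0.25, adjusted p = 0.149). Fcrlb, with 0, 1 and 4 counts in sham and 2, 1 and 9 in BCP, and Fcgbpl1, with at most 5 counts in a library, were not tested.

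Immunoglobulin genes and B lineage markers were examined beside the receptors, and 15 rows were found for 24 names. Their counts are of RNA and do not measure the antibodies in the tissue that the receptors bind. Only 4 of them had enough counts to be tested, and 3 were called up-regulated. Ighm, the IgM heavy chain, had 20, 15 and 16 counts in sham and 87, 169 and 134 in BCP (log2FC 3.02, adjusted p = 1.22e-08). Igkc, the kappa light chain, had 2, 0 and 0 counts in sham and 39, 77 and 33 in BCP. Sdc1, a plasma cell and epithelial surface protein, had a log2FC of 2.09 (adjusted p = 3.97e-07). The row named Ighg, for IgG heavy chains, was listed at 0 in every library. How reads that match several immunoglobulin genes were counted is not given in the sources used here, so this 0 describes the row only. The B cell marker Ms4a1 had 0, 0 and 0 counts in sham and 3, 3 and 2 in BCP.

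Most genes that act beside Fcer1g at the membrane had too few counts to be tested. All 3 tested genes of 12 ITAM adaptors and receptors that pair with such chains were called up-regulated. Tyrobp, the ITAM adaptor of Trem2 and other microglial receptors, had 152, 135 and 135 counts in sham and 435, 662 and 713 in BCP. The groups did not overlap and the log2FC was 2.20 (SE 0.15, adjusted p = 4.68e-07), close to the value of Fcer1g. Cd247, the zeta chain of T and natural killer cells, had 0, 2 and 0 counts in sham and 36, 31 and 32 in BCP. It passed the filter only through the BCP libraries, which favors a call upward. The third was Cd300lf, with a log2FC of 2.27 (adjusted p = 2.42e-09). Among the rows not tested, Oscar overlapped, with 4, 3 and 13 counts in sham and 5, 6 and 8 in BCP. Hcst did not overlap, with 0, 2 and 0 counts in sham and 7, 30 and 19 in BCP.

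Of 27 rows for activating signaling downstream of Fc gamma receptors, all tested, 16 were called up-regulated, none was called down-regulated and the median log2FC was 1.08, against -0.01 over all tested genes. DESeq2 called 15 up-regulated. Those that rose included the Src family kinases Fgr (log2FC 3.07) and Lyn. Lyn had 295, 311 and 278 counts in sham and 1031, 1503 and 1538 in BCP, and its log2FC was 2.31 (SE 0.11, adjusted p = 8.09e-08). Syk, the kinase that binds phosphorylated ITAMs, had 128, 112 and 118 counts in sham and 205, 299 and 341 in BCP. The groups did not overlap and its log2FC was 1.34 (SE 0.15, adjusted p = 1.23e-06), which did not pass a test against a fold change of 2 (adjusted p = 0.0945). Plcg2, a phospholipase (log2FC 2.32), Pik3cg, a catalytic subunit of phosphoinositide 3-kinase (1.91), and its regulatory subunit Pik3r5 (2.44) also rose. The 10 rows whose adjusted p did not pass included Fyn (log2FC -0.01), Plcg1 (-0.10), Pik3r1 (-0.07), Sos1 (-0.03) and Vav2 (-0.06).

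Genes of inhibitory signaling downstream of Fcgr2b rose as well. Of 9 tested 5 were called up-regulated and none down-regulated, with a median log2FC of 1.02. Ptpn6, the phosphatase SHP-1 of blood cells, had 127, 143 and 118 counts in sham and 736, 1056 and 1098 in BCP, a log2FC of 3.0 (SE 0.12, adjusted p = 3.26e-11). Inpp5d, the inositol phosphatase SHIP1 that Fcgr2b recruits, had 371, 396 and 305 counts in sham and 781, 1184 and 1056 in BCP, a log2FC of 1.59 (SE 0.14, adjusted p = 5.78e-05). The adaptors Dok1, Dok2 and Dok3 had log2FC of 1.38, 1.02 and 1.29. Ptpn11, the broadly expressed relative of Ptpn6, was lower without passing the fold threshold (log2FC -0.15, adjusted p = 0.00837), and Inppl1, the relative of Inpp5d, had a log2FC of -0.02 (adjusted p = 0.857).

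**Figure D4:**
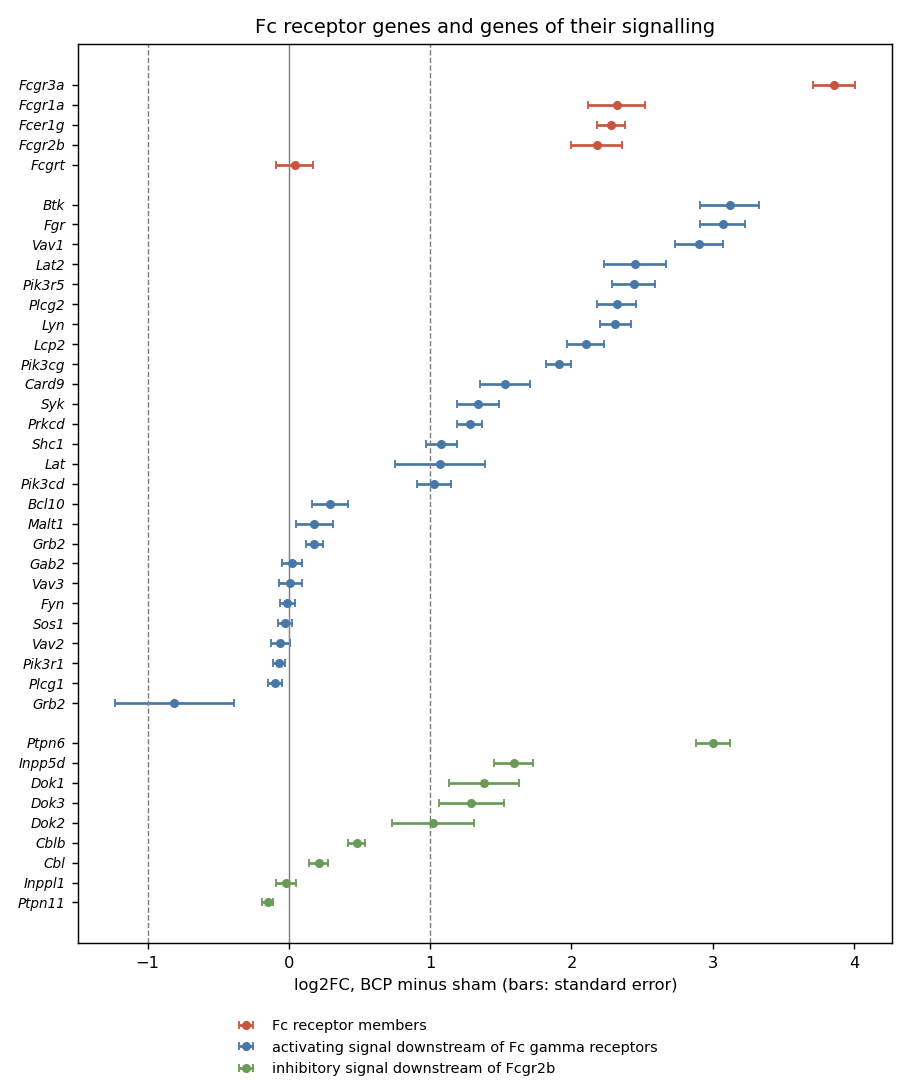
Log2FC of BCP relative to sham with its standard error (bars) for the 5 tested Fc receptor genes (red), 26 of the 27 rows of activating signaling (blue, Grb2 with 2 rows) and 9 genes of inhibitory signaling (green), with dashed lines at the threshold of 1. In both signaling lists the genes called up-regulated lie between 1.02 and 3.12, and the other rows lie between -0.81 (a row of Grb2) and 0.48 (Cblb).

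The wider KEGG pathway Fc gamma R-mediated phagocytosis, as annotated in the deposited table, held 81 genes. It includes Fcgr1a and Fcgr2b but not Fcgr3a or Fcer1g. Without those members, 78 genes were tested, 17 were called up-regulated and none down-regulated, but the median log2FC was 0.01. At any fold change 25 passed upward and 17 downward, where 15.8% and 12.1% of all tested genes did, and 36 did not pass. Scin, a gelsolin-like actin severing protein, was not counted in any sham library and had 234, 372 and 326 counts in BCP, which is at least 111-fold higher when 3 counts per sham library are taken as the floor. Pik3cg, Plcg2 and Pik3r5, also among the genes of the pathway with the smallest p-values, are in the activating list, of which 14 rows are also in this pathway.

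Relatives of FcRn and of its partner gave 2 up-regulated genes of 5 tested, B2m and Cd1d1, a lipid-presenting class I-like molecule (log2FC 1.35, adjusted p = 0.00109). Hfe, Mr1 and Procr, other class I-like genes, had log2FC of 0.32, -0.06 and 0.51 and did not pass.

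Markers of cell types known to carry Fc receptors were counted beside the members. Of 17 tested microglia markers 10 were called up-regulated, and the summed level of the list was 477 to 603 CPM in sham and 1310 to 1580 CPM in BCP. Among them Spi1, the factor PU.1, had a log2FC of 2.42, Aif1 2.40 and Cx3cr1 1.42, whereas Tmem119 and Gpr34 had log2FC of 0.19 and 0.18 and did not pass, and Siglech was at 0. Set against the mean log2 CPM of this list in the same library, Fcgr3a moved from -2.47 to 0.11, Fcer1g from -1.06 to -0.03, Fcgr1a from -3.19 to -2.15 and Fcgr2b from -2.0 to -1.08, while Fcgrt moved from -0.37 to -1.58. The 4 called members thus rose beyond the average marker of the list. The part of microglia number or state in these values was not tested.

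Markers of blood-borne cells and of perivascular macrophages differed in how many rose. All 7 tested natural killer cell markers and all 8 tested T cell markers were called up-regulated, with summed levels of 0.473 to 1.4 CPM in sham against 39.2 to 63.7 CPM in BCP and of 2.57 to 3.66 CPM against 34.1 to 52.7 CPM. Of these, 5 and 4 genes had at most 3 counts in every sham library. Such genes passed the filter only through the BCP libraries, which favors a call upward, and other rows of both lists were too low to test. Klrk1, the receptor NKG2D of natural killer and some T cells, had 7, 3 and 2 counts in sham and 241, 430 and 367 in BCP. Ncr1, a natural killer cell receptor listed here with those that pair with Fcer1g, was not tested. It had 1, 0 and 0 counts in sham and 1, 6 and 0 in BCP. Of 10 tested markers of monocytes and perivascular macrophages 4 rose, among them Plac8, Cd14 and Clec10a, with a summed level of 209 to 218 CPM in sham and 319 to 360 CPM in BCP. Vcan, which was not called, made up most of that sum, with 192 ± 6.23 CPM in sham and 209 ± 19.3 CPM in BCP. Plac8, which went from 3.13 ± 1.89 to 99 ± 16.1 CPM, gave most of its rise. The defining monocyte marker Ccr2 was counted 0, 0 and 0 times in sham and 1, 1 and 1 times in BCP, and the perivascular macrophage markers Mrc1, Cd163 and Lyve1 had log2FC of 0.17, -0.27 and -0.52 and did not pass. Of neutrophil markers Csf3r (log2FC 1.66) and S100a8 (1, 0 and 0 counts in sham, 23, 15 and 10 in BCP) were the tested genes, and both rose, the summed level of the list being 8.85 to 10.1 CPM in sham and 30.4 to 34.8 CPM in BCP. Csf3r alone made up most of that sum, with 9.01 ± 0.977 CPM in sham and 28.4 ± 4.12 CPM in BCP. The granule genes Elane, Mpo, Camp and Ngp had at most 10 counts in a library and Ltf was at 0. Also too low to test, S100a9 had 0, 2 and 3 counts in sham and 15, 9 and 10 in BCP. Cxcr2 had 0, 0 and 1 counts in sham and 11, 4 and 6 in BCP, without overlap in either gene. Retnlg overlapped, with 0, 0 and 1 counts in sham and 3, 0 and 4 in BCP. The mast cell markers Tpsb2 and Mcpt1 were at 0, and Kit, the only tested marker of that list, had a log2FC of -0.53 (adjusted p = 0.00123). The part of these cells in the change of the Fc receptor genes was not tested.

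Markers of the resident tissue, as labeled, were present. Neuronal markers summed to 6200 to 6390 CPM in sham and 5460 to 6020 CPM in BCP, and those of astrocytes and oligodendrocytes to 38000 to 43000 CPM and 29500 to 34200 CPM. Endothelial markers, of the cell type in which FcRn is best known, summed to 591 to 607 CPM in sham and 626 to 632 CPM in BCP with a median log2FC of -0.06. Neither edgeR nor DESeq2 called a gene of these 3 lists. At an unadjusted p under 0.05 edgeR found 1 endothelial gene up, 3 neuronal genes down, and 1 astrocyte or oligodendrocyte gene up and 6 down.

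Fcgr2b, Fcgr3a and Fcer1g are neighbors on chromosome 13, so the genes around them were examined. Within 500 kb of Fcgr3a, 27 tested genes outside the members had a median log2FC of -0.01, and 2 were called up-regulated. These were Fcrla and Arhgap30, a GTPase activating protein of leukocytes (log2FC 3.01, SE 0.12, adjusted p = 4.39e-13). Within 500 kb of Fcer1g, 4 of 28 were called up-regulated, with a median of 0.03, and these were Fcrla and Arhgap30 again and Cd244 (2.57) and Ly9 (4.56). Around Fcgr2a, farther along the chromosome, 2 of 11 were called up-regulated, Slamf8 (3.30) and Slamf9 (4.01), with a median of -0.13. Cd244, Ly9, Slamf8 and Slamf9 encode receptors of leukocytes of the SLAM family, and the genes around the members were named after their values were seen. Between Fcgr3a and Fcer1g, Sdhc, Pcp4l1 and Tomm40l had log2FC of -0.14, -0.21 and -0.22. Cfap126, in the same interval, had a log2FC of 0.86 (SE 0.41, adjusted p = 0.145 in edgeR) and did not pass. Around Fcgr1a on chromosome 2, 8 of 35 tested genes were called up-regulated, among them histone genes, with a median of 0.21, and around Fcgrt on chromosome 1, 5 of 49 were, with a median of 0.02.

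**Figure D5:**
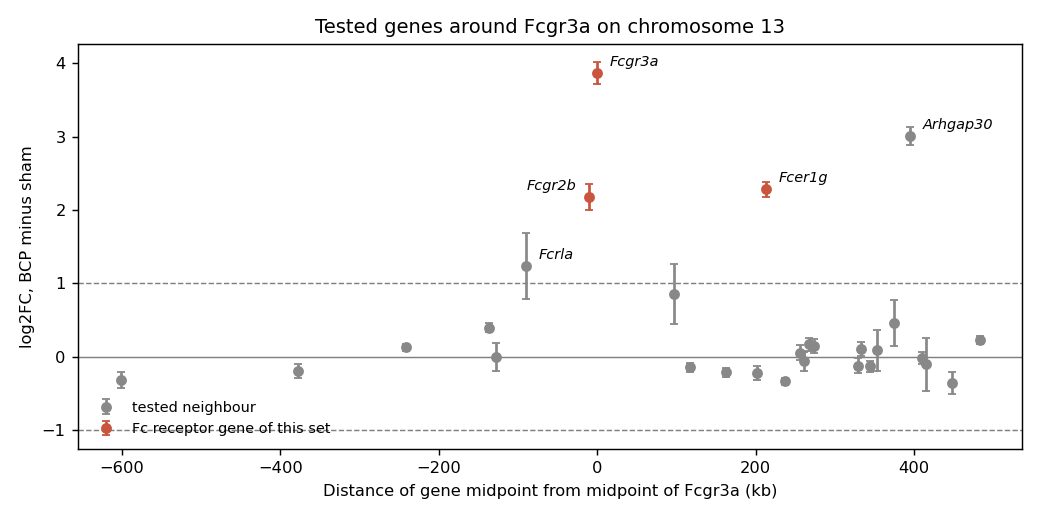
Log2FC with its standard error of tested genes around Fcgr3a, of which 2 are not drawn, plotted against the distance of gene midpoints in kb, with Fc receptor genes in red, other genes in gray and dashed lines at a log2FC of 1 and -1. Fcgr3a, Fcgr2b, Fcer1g, Arhgap30 and Fcrla lie above 1 and most genes between them lie near 0.

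Long noncoding RNAs within 10 kb of a member were looked up after the files had been seen, and 10 were found near 3 of the members. Of 9 tested none was called by edgeR, while among all 12157 tested lncRNAs 1.14% were called up-regulated and 0.074% down-regulated. At an unadjusted p under 0.05 edgeR found 4 of the 9. The share of all tested lncRNAs under that unadjusted p was not counted, so this 4 has no background beside it. Inside the span of Fcgr2b, NONRATT008953.2 (chr13:89329327-89330063) had 3, 5 and 2 counts in sham and 14, 14 and 15 in BCP (log2FC 2.21, SE 0.44, adjusted p = 0.0502). NONRATT008958.2, which overlaps Fcer1g, had 9, 9 and 19 counts in sham and 29, 32 and 53 in BCP (log2FC 1.77, SE 0.38, adjusted p = 0.0632). Since the use of strand in counting is not given in the sources used here, reads of the lncRNAs and of the genes they overlap cannot be told apart.

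Promoter sequences were available from RefSeq (GRCr8) for 3 of the 6 members, from 250 bases before to 50 bases after the start. Those of Fcgr3a, the member with the largest change, and of Fcgrt, the tested member that did not pass, are shown 5′ to 3′ because they carry letters of factors known to act in myeloid cells and in interferon responses. They are Fcgr3a at chr13:85782386-85782685 (plus strand) and Fcgrt at chr1:104719977-104720276 (minus strand), positions that are not those of Rnor_6.0. Capitals mark the matches.
Fcgr3a: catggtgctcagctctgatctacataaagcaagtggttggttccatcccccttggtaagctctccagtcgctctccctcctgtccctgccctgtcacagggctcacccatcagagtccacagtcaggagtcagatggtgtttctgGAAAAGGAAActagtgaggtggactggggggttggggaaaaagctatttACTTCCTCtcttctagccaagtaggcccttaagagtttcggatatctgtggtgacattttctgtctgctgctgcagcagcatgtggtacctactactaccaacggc
Fcgrt: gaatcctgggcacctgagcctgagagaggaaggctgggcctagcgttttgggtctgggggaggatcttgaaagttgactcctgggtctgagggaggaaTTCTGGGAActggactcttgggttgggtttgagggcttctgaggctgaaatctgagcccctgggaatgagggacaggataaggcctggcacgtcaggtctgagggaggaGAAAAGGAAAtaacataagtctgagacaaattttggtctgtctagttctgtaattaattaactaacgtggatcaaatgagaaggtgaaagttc
Both strands were searched for the PU.1 core GAGGAAGT, the GAS element TTCNNNGAA of STAT factors and the ISRE core (GAAA and GAAA with any 2 bases between them). In Fcgr3a the PU.1 core lay on the minus strand at -56 and the ISRE core at -105, and in Fcgrt the ISRE core lay at -43 and the GAS element at -152, without overlap of matches. Of 33469 promoters of this length 2.42% held the PU.1 core, 8.87% the GAS element and 3.92% the ISRE core. The promoters of Fcgr2a held none of these letters in the window. A match describes the sequence and not binding.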

How the data were processed

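RNA of 6 spinal cord samples, 3 sham and 3 BCP, was sequenced by the study as strand-specific, ribosome-depleted libraries. Per the labels and the study's methods, the authors cleaned the reads (Seqtk), aligned them by Hisat2 2.0.4 on the Rnor_6.0 build and obtained FPKM from Stringtie 1.3.0. The authors deposited unnormalized counts and FPKM values of each gene and lncRNA in each library. Which program counted the reads, whether it used strand, and what it did with multi-mapping reads is not given in the sources used here. Dividing the deposited counts by FPKM and by the total gene count of the library gave the same exon length in every library for each of the 5 tested members. For these members the FPKM were thus the same counts rescaled, so the fit on FPKM was not an independent measurement.

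Groups came from the labels. The test on counts was that of edgeR 4.0.16, run in R 4.3.3 (filterByExpr, TMM factors 0.982 to 1.02, robust quasi-likelihood fit on the condition, Benjamini-Hochberg over 14908 genes), and lncRNAs were fitted separately. The thresholds were those of the study. Ratios within a library were tested with exact permutation tests after adding 0.5 to each count. Levels are given as mean ± SD. Alternatives were DESeq2 1.42.0, the exact test of edgeR, a test against a fold change of 2, no fold threshold, upper-quartile scaling, library size only, no filter, at least 10 counts in every library, limma 3.58.1 on log2(FPKM + 0.1), the replicate number as a block, and each library left out. Floors of 3 counts cover counting error only, since PCR duplicates are not independent molecules.

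The code was tested on simulated counts, in which 96.5% of 200 genes changed 4-fold were recovered among 14793 tested, with 2 unchanged genes called. Of 200 simulated lncRNAs changed 4-fold, 84.5% were recovered among 11619 tested, with 4 unchanged lncRNAs called. Replicates of a group differed by more than counting noise in every pair. The members and gene lists were chosen with earlier results of these data known. By the rule for naming genes the text gives all members, relatives with at least 10 counts in total, up to 5 genes with the smallest p-value per list, Syk, Lyn, Inpp5d, Ptpn6, Tyrobp and B2m, defining markers, and the 3 genes nearest to each member, and further genes of the lists were named after their values were seen. A few genes named by the rule are left out of the text. No protein sequences were used here. Plots were made in Python 3.11.15 using matplotlib 3.10.9.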

Additional observations from a re-analysis of the deposited data

How the results depend on the processing

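Under all 16 alternatives 4 Fc receptor genes were called up-regulated and none down-regulated. The log2FC ranged from 2.25 to 2.44 for Fcgr1a, from 2.02 to 2.40 for Fcgr2b, from 3.70 to 3.98 for Fcgr3a and from 2.17 to 2.36 for Fcer1g. That of Fcgrt, 0.04 in all libraries, ranged from -0.02 to 0.18 with a library left out and changed sign to -0.02 without sham replicate 1, to -0.02 without sham replicate 3 and to -0.01 without BCP replicate 2, and it was never called. The difference in the log2 ratio of Fcgr1a to Fcgr2b ranged from -0.16 (without sham replicate 1) to 0.26 when a library was left out. Syk kept its log2FC of 1.34 but missed the threshold in the test against a fold change of 2 (adjusted p = 0.0945).

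The number of all genes called up-regulated (946) was 548 in the test against a fold change of 2 and 2352 with no fold threshold, and 880 to 1015 with a library left out. The number called down-regulated (16) was 0 in the test against a fold change of 2, 1805 with no fold threshold, 37 with no filter, 6 with at least 10 counts in every library, 6 with limma on FPKM, and 16 to 33 with a library left out (25 without sham replicate 2 and 33 without BCP replicate 1). With no fold threshold 1 endothelial gene and 1 gene of the astrocyte and oligodendrocyte list passed upward, and 3 neuronal genes, 6 genes of the astrocyte and oligodendrocyte list and 1 mast cell marker passed downward. The causes of these differences in number were not tested beyond the changed threshold or filter itself.

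Samples with the same replicate number did not deviate together (correlations of -0.106, 0.034 and -0.037), so no pairing by number was seen. Shared effects that are small or limited to some genes would not show in these correlations. With the replicate number as a block, 4 members, 907 genes up and 16 genes down were called. Fcgr2a and most Fc receptor-like and immunoglobulin genes had too few counts to be tested, and why their counts were low was not tested.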
